A study of Homo sapiens with 10 samples.

Results

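The genes described here are the alpha-arrestins ARRDC1, ARRDC2, ARRDC3, ARRDC4 and TXNIP, thioredoxin (TXN), and the MLX group of glucose-sensing transcription factors, MLX, MLXIP and MLXIPL. They are 9 of the 19775 genes that the arrays measure with at least 1 probe set assigned to a single gene symbol. Together they have 21 such probe sets, and each gene is given by the probe set with the highest mean over the 10 arrays, with the other probe sets as a check. The group was proposed because ARRDC4 was higher in coculture, so coculture differences are given for all 9 genes as a description without a test, and the tests concern the cell lines, vitamin D3, the difference between the lines in the coculture effect, and THP1 cells.

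The study placed human colon cancer cells in shared medium with THP1 macrophages, without contact, and treated cultures with vitamin D3 for 24 hours. The lines Hke3 and HCT116 were each profiled on 1 array with THP1 cells and vitamin D3, 1 with THP1 cells, 1 with vitamin D3 and 1 alone, and the monocytic leukaemia line THP1 on 1 array with vitamin D3 and 1 alone. HCT116 is a colorectal carcinoma line, and Hke3 is a clonal line derived from it, so a difference between them can also belong to the clone. Total RNA of whole cultures was measured on one-colour Affymetrix arrays, so that a change in the mix of cells and a change in RNA per cell cannot be told apart, and no condition has a replicate. The growth protocol gives MEM for both colon cancer lines and RPMI for THP1, and the labels do not say which medium the cocultures had, so medium and coculture cannot be told apart.

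MLXIP, also called MondoA, and MLXIPL, also called ChREBP, pair with MLX, respond to phosphorylated glucose in the cell and switch on genes through spaced E-box elements. TXNIP and ARRDC4 are the best known targets of MondoA and both lower glucose uptake at the cell surface, which closes a feedback loop. Alpha-arrestins are adaptors that bring ubiquitin ligases of the NEDD4 family to membrane proteins. TXNIP also binds thioredoxin, the small protein that keeps cysteines reduced, whereas ARRDC3 is known for directing receptor and integrin traffic and ARRDC1 for the budding of vesicles from the cell surface.

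The windows of 250 bases before the annotated gene starts of ARRDC4, TXNIP and ARRDC3 are shown because 2 of these genes were higher in cocultured cells and the other, TXNIP, is the reference target of the same factors. All 9 genes matched the RefSeq promoter table of build GRCh38.p14, which gave 12 windows for them. Capitals mark matches, on either strand, to the E-box CACGTG, to a spaced pair of CACGNG arms with 5 bases between them, in which CACGTG is 1 of the allowed spellings of each arm, to the CCAAT box and to the FOXO motif GTAAACA.
ARRDC4: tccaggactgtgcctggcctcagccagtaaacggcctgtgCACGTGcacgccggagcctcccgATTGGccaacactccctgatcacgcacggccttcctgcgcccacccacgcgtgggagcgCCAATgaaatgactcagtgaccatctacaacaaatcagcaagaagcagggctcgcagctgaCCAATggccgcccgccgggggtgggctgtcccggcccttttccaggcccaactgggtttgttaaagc
TXNIP: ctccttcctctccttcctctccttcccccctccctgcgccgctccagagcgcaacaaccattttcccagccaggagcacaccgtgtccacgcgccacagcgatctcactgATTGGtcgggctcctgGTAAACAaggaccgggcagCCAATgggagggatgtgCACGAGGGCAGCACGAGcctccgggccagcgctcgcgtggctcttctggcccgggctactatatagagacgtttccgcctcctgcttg
ARRDC3: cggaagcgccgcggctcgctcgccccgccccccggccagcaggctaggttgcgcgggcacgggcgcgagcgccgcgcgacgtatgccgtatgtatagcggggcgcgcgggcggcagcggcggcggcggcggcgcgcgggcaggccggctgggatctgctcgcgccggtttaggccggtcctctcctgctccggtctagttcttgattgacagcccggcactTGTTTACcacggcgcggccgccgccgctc

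ARRDC4 lies on chromosome 15 from 97960703 to 97973833, and its window is chr15:97960453-97960702 on the plus strand. The TXNIP window is chr1:145996580-145996829 on the minus strand, before the outermost of its annotated starts, with the gene from 145992435 to 145996579. The ARRDC3 window is chr5:91380098-91380347 on the minus strand, before the second of its annotated starts and inside the gene, which runs from 91368631 to 91383317. The TXNIP window holds a spaced E-box pair from 88 to 72 bases before the start, CCAAT boxes at 140 to 136 and 105 to 101, and a FOXO motif between them. Only 0.0456% of the 35116 windows of the same length hold the spaced pair. The pattern asks both arms to read in the same direction, so pairs with a reversed arm other than CACGTG were not counted. The ARRDC4 window has no such pair and holds an E-box from 210 to 205 bases before the start, which 6.34% of windows hold, and 3 CCAAT boxes; 32.0% of windows hold at least 1. The ARRDC3 window shown holds a FOXO motif from 29 to 23 bases before the start (2.98% of windows). The window before its other, outermost start is not shown and holds a CCAAT box but no FOXO motif. That share is per window and makes no allowance for a gene with more than 1 window. MLX has an E-box from 50 to 45 bases before its start. The ATF4 motif TGATGNAA (3.14% of windows) was in none of the 12 windows. These matches describe letters and were not tested as binding sites.

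**Figure D1:**
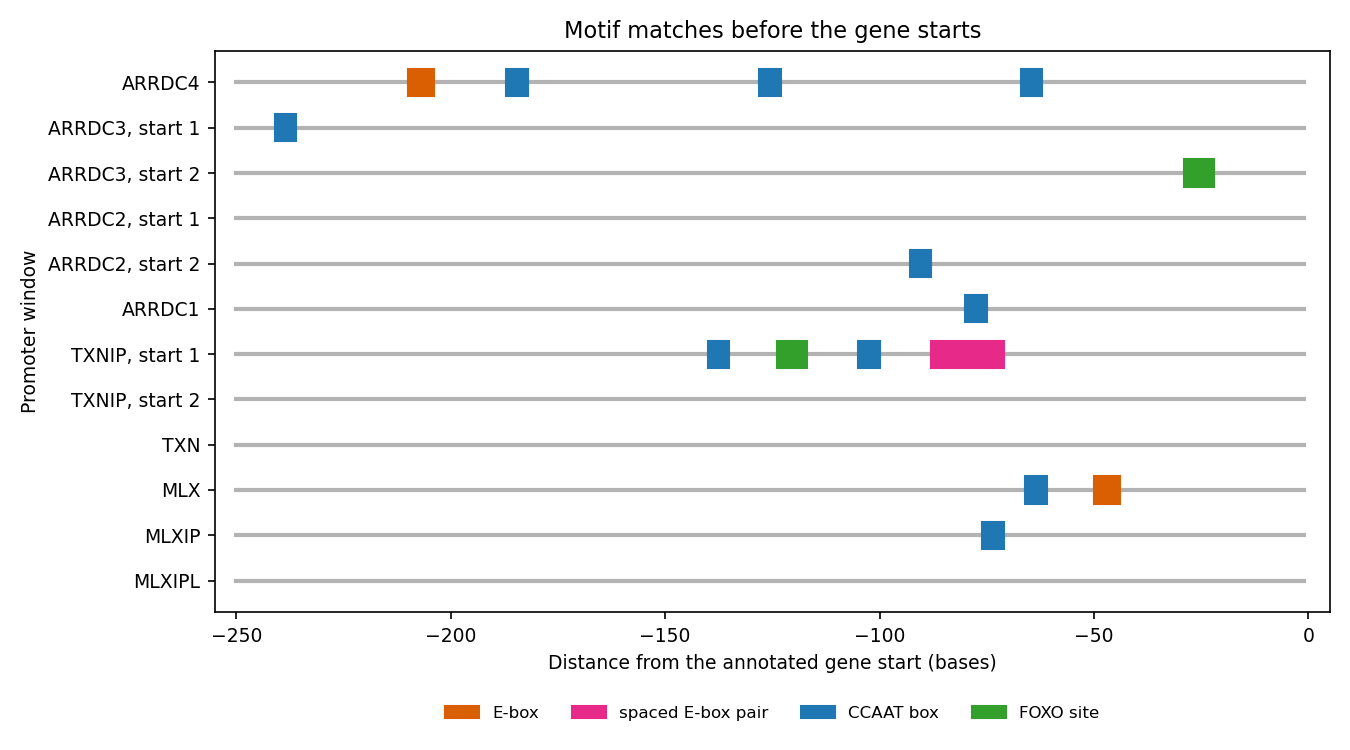
Motif matches in the 12 windows of 250 bases before the annotated starts of the 9 genes. The x axis is the distance from the start in bases, grey lines are the windows, and coloured blocks are matches on either strand. The spaced E-box pair is in the first TXNIP window, 88 to 72 bases before the start, and E-boxes are in the windows of ARRDC4 and MLX.

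The arrays matched their cell types and showed little macrophage RNA in the cocultured cells. The median of 14 macrophage markers was 5.49 to 5.69 log2 on the 4 cocultured colon cancer arrays and 5.39 to 5.59 on the 4 without coculture, against 10.95 and 11.43 on the THP1 arrays, and at most 6 of the 14 exceeded 6.18 log2, the median of all values. SRGN, an abundant proteoglycan of myeloid granules, was 6.28 log2 in Hke3 cocultured with vitamin D3 and 4.37 to 4.90 on the other cocultured arrays, against 3.94 to 4.72 without coculture and 13.90 and 14.05 in THP1. EPCAM, an epithelial adhesion molecule, was 13.06 to 13.55 log2 on the colon cancer arrays and 4.56 and 4.77 in THP1. Of 12 epithelial markers, 9 exceeded 6.18 log2 on every colon cancer array, against 3 and 4 on the THP1 arrays. Those under it in the colon cancer cells were the colonocyte genes KRT20, LGALS4 and TSPAN8. VIL1 (0.05 log2), CDX1 (0.002) and the macrophage marker ITGAM (-0.06) did not separate THP1 from colon cancer cells without coculture (limma, adjusted p of 0.53 to 0.986). The 3' minus 5' difference of the ACTB control probe sets, which rises as RNA is degraded, was 0.56 to 0.94 log2 in Hke3 and 0.16 to 0.30 in HCT116. CYP24A1, the classical vitamin D target gene, was higher with vitamin D3 by 1.45 log2 in Hke3 and 1.44 in HCT116 without coculture and by 5.88 in THP1, but in coculture the differences were -1.36 in Hke3 and -0.98 in HCT116. The cocultured arrays labelled with vitamin D3 therefore go against their labels in this gene.

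ARRDC4, which lowers glucose uptake, was higher in coculture in both lines, and far more so in HCT116. In Hke3 it was 8.47 log2 in coculture labelled with vitamin D3 and 8.75 in coculture, against 8.11 with vitamin D3 and 7.90 alone. In HCT116 it was 10.08 log2 in coculture labelled with vitamin D3 and 10.22 in coculture, against 8.43 with vitamin D3 and 8.28 alone. Every cocultured array lay above every array without coculture, as for 3.6% of all genes. The lowest of the first, 8.47 in Hke3, and the highest of the second, 8.43 in HCT116, nearly touched. The coculture difference averaged 1.20 ± 0.73 log2 over the 4 pairs of arrays that by their labels differ only in coculture (SD, n = 4). Its 4 values were 0.36 and 0.85 in Hke3 and 1.65 and 1.95 in HCT116. Pair values and their SD, here and below, rely on the vitamin D3 labels, which CYP24A1 goes against on the cocultured arrays. Among all 13243 genes tested, 7.82% passed an adjusted p of 0.05 for coculture and 0.0906% were higher by 2-fold or more. Since the group was chosen by this contrast, nothing is read from these shares.

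The coculture effect on ARRDC4 differed between the lines. Its difference was 0.61 log2 in Hke3, a 1.52-fold level, and 1.80 log2 in HCT116, a 3.47-fold level. The interaction, Hke3 minus HCT116, was -1.19 ± 0.17 log2 (standard error; limma, adjusted p = 0.0152), and 4.21% of all genes passed it. ARRDC4 was the only 1 of the 9 genes past that threshold. This contrast is independent of the mean coculture difference over both lines, but not of the difference in HCT116 alone. ARRDC4 was chosen for its coculture rise with earlier results known, so its p-value may not be independent of that choice. The call was lost without HCT116 alone (-1.07, adjusted p = 0.0753), without HCT116 in coculture (-1.10, adjusted p = 0.0676), without HCT116 in coculture labelled with vitamin D3 (-1.27, adjusted p = 0.0556) and without Hke3 with vitamin D3 (-1.04, adjusted p = 0.0654), while the value stayed between -1.37 and -1.01 in all 8 such fits. The part of RNA quality in the difference between the lines was not tested, and the ACTB value was lower in coculture than without it in both.

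Across the groups, the level of ARRDC4 was 10.15 ± 0.10 log2 in cocultured HCT116, 9.99 ± 0.39 in THP1, 8.61 ± 0.20 in cocultured Hke3, 8.35 ± 0.11 in HCT116 without coculture and 8.003 ± 0.15 in Hke3 without coculture (SD, n = 2 arrays each, which differ in the vitamin D3 label). The top neighbours in this order, cocultured HCT116 and THP1, did not differ beyond their spread, and the arrays of the next close neighbours, cocultured Hke3 (8.47 and 8.75) and HCT116 without coculture (8.43 and 8.28), came near each other without overlapping. The part of THP1 RNA in the ARRDC4 values of cocultured cells was not tested beyond the marker levels above.

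**Figure D2:**
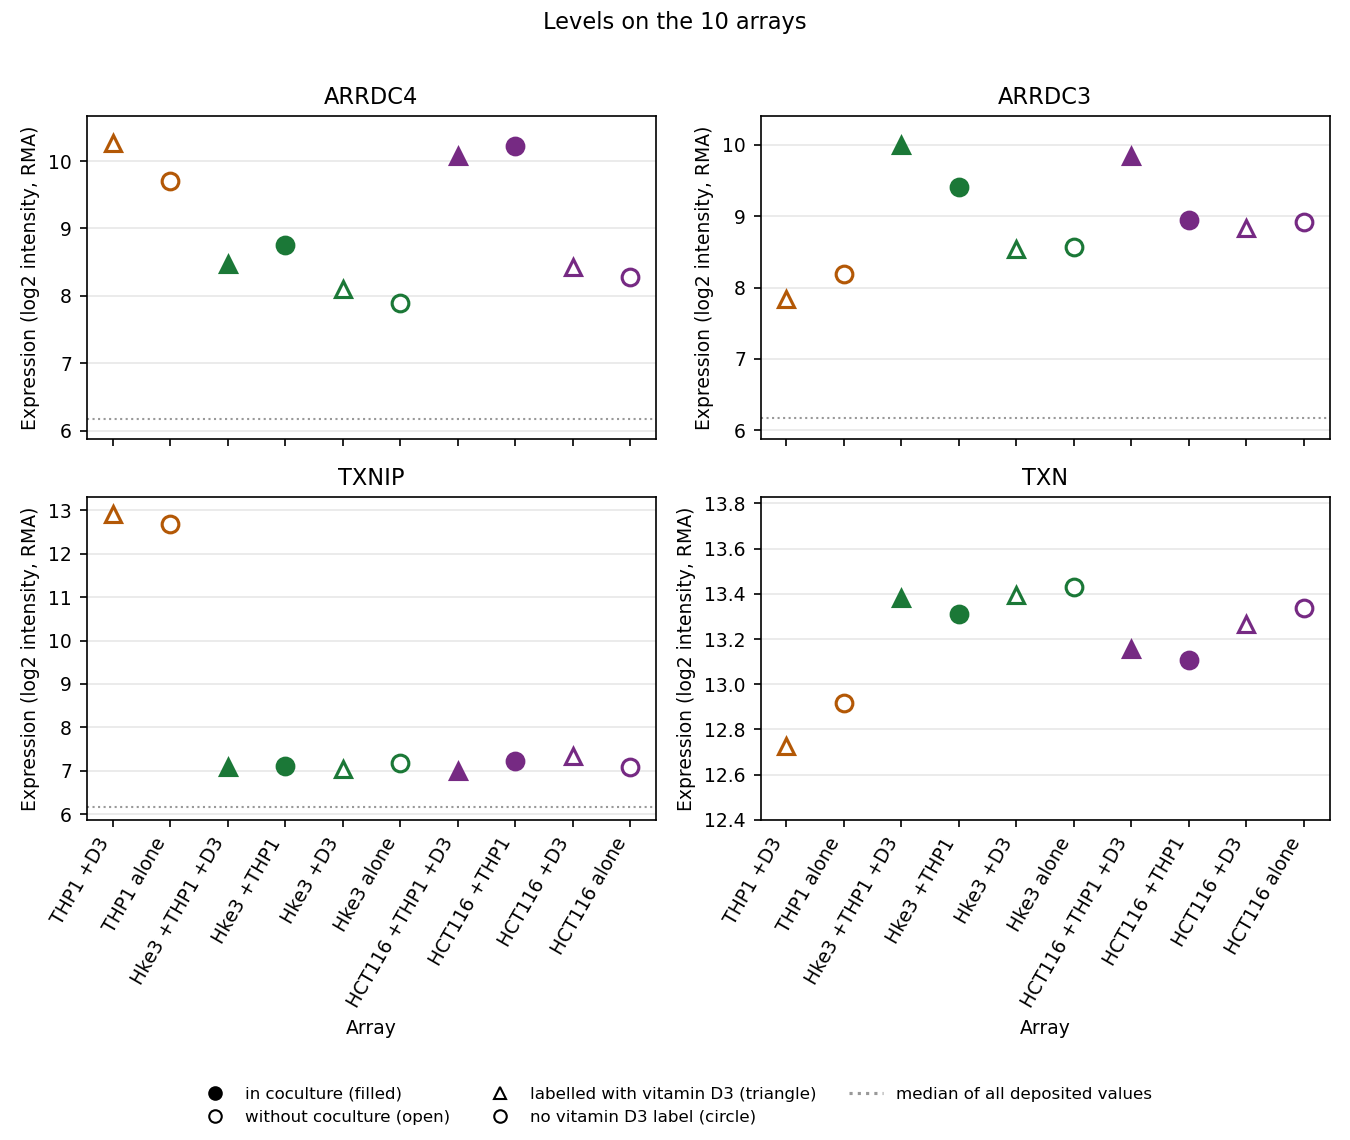
Levels of ARRDC4, ARRDC3, TXNIP and TXN on each of the 10 arrays, as deposited log2 intensities on axes that do not start at 0. Filled symbols are cocultured cells, open symbols are cells without coculture, triangles are arrays labelled with vitamin D3, and the dotted line is the median of all deposited values. ARRDC4 is highest in cocultured HCT116 and in THP1, whereas TXNIP lies between 6.999 and 7.33 log2 on all 8 colon cancer arrays.

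TXNIP, which binds thioredoxin and is a MondoA target like ARRDC4, showed no matching rise in coculture. In Hke3 TXNIP was 7.08 log2 in coculture labelled with vitamin D3 and 7.11 in coculture, against 7.04 with vitamin D3 and 7.19 alone. In HCT116 it was 6.999 log2 in coculture labelled with vitamin D3 and 7.23 in coculture, against 7.33 with vitamin D3 and 7.08 alone. The groups overlapped, and the coculture difference was -0.06 ± 0.21 log2 (SD, n = 4 pairs). The other TXNIP probe sets lay at 4.86 to 5.29 log2 on the colon cancer arrays, under the median of all values, with coculture differences of 0.12 ± 0.16 and 0.09 ± 0.17 log2 (SD, n = 4 pairs). Over the 8 colon cancer arrays, which share 4 pairs of conditions, the Pearson correlation of TXNIP with ARRDC4 was -0.07. By its other probe sets TXNIP is dim in these cells. Its flat values and low correlation therefore cannot show whether it responds as ARRDC4 does.

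ARRDC3, which directs beta-adrenergic receptors and integrin beta 4 into degradation, was the other alpha-arrestin with higher values in coculture. In Hke3 its level was 10.0005 log2 in coculture labelled with vitamin D3 and 9.41 in coculture, against 8.54 with vitamin D3 and 8.56 alone. In HCT116 it was 9.84 log2 in coculture labelled with vitamin D3 and 8.94 in coculture, against 8.83 with vitamin D3 and 8.92 alone. The cocultured arrays lay above the others, as they did for 3.6% of all genes, but the HCT116 array in coculture exceeded HCT116 alone by only 0.03 log2. The coculture difference averaged 0.84 ± 0.60 log2 over the 4 pairs (SD, n = 4), with 1.46 and 0.85 in Hke3 and 1.01 and 0.03 in HCT116. In Hke3 the difference was a 2.23-fold level and in HCT116 a 1.43-fold level. The interaction with the line was 0.64 ± 0.31 log2 (limma, adjusted p = 0.29) and did not pass, although it did when all two-way interactions were fitted together (adjusted p = 0.0299).

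The size of the ARRDC3 difference followed the vitamin D3 label of the cocultured arrays. Cocultured cells labelled with vitamin D3 had more ARRDC3 than cocultured cells without it, by 0.59 log2 in Hke3 and 0.90 in HCT116, whereas without coculture the vitamin D3 differences were -0.02 and -0.09. Averaged over all 4 pairs, the vitamin D3 difference of ARRDC3 was 0.34 ± 0.19 log2, the third highest of 13243 genes, and did not pass (limma, adjusted p = 1). ARRDC4 ran the other way in coculture, by -0.29 log2 in Hke3 and -0.14 in HCT116, and was 0.21 and 0.16 higher with vitamin D3 without coculture. Since CYP24A1 goes against the labels of these same cocultured arrays, the direction of the ARRDC3 difference with vitamin D3 is that of the labels and no more.

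ARRDC2 and ARRDC1 stayed within narrow ranges. ARRDC2, an alpha-arrestin with less studied roles, lay between 7.91 and 8.19 log2 on the colon cancer arrays and differed by 0.10 ± 0.09 log2 with coculture (SD, n = 4 pairs), above 0 in all 4 pairs. ARRDC1 lay between 8.43 and 8.88 and differed by -0.02 ± 0.10 log2 with coculture (SD, n = 4 pairs). These differences are small beside the 1.20 log2 of ARRDC4 and the 0.84 log2 of ARRDC3.

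**Figure D3:**
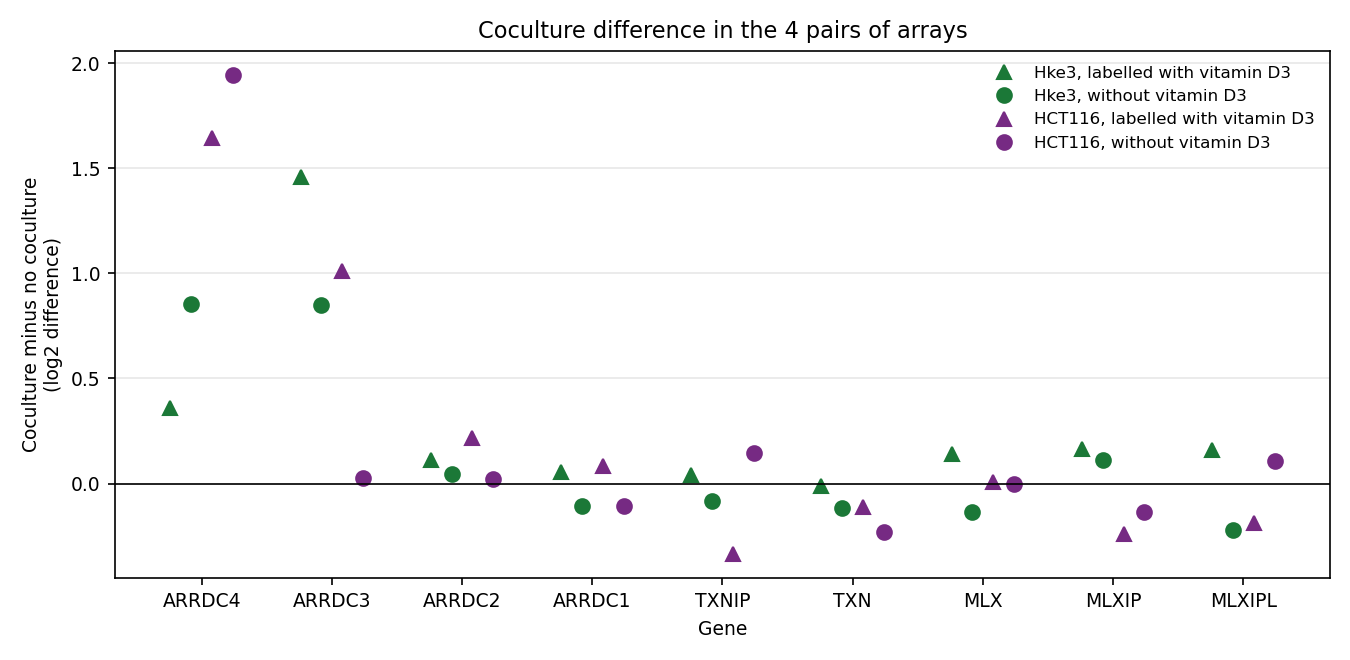
Coculture differences of the 9 genes, in log2, for the 4 pairs of arrays that by their labels differ only in coculture. Each symbol is 1 pair, coloured by cell line and shaped by the vitamin D3 label. ARRDC4 runs from 0.36 to 1.95 and ARRDC3 from 0.03 to 1.46, while the other 7 genes stay between -0.33 and 0.22.

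Thioredoxin was lower in coculture in every pair, by little. TXN was 13.38 log2 in Hke3 in coculture labelled with vitamin D3 and 13.31 in coculture, against 13.39 with vitamin D3 and 13.43 alone. In HCT116 it was 13.15 log2 in coculture labelled with vitamin D3 and 13.11 in coculture, against 13.27 with vitamin D3 and 13.34 alone. Within HCT116 the cocultured arrays lay under the others, and within Hke3 likewise, by a smaller margin. The difference was -0.12 ± 0.09 log2 (SD, n = 4 pairs), and a second TXN probe set gave -0.05 ± 0.21 with 2 of 4 pairs above 0. Over the 8 colon cancer arrays, which share 4 pairs of conditions, the Pearson correlation of TXN with ARRDC4 was -0.95. It rests on a narrow TXN range, 13.11 to 13.43 log2, and was not computed for the second TXN probe set.

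The transcription factors that read glucose showed no common shift with coculture. MLX, the shared partner, lay between 10.41 and 10.55 log2 on the colon cancer arrays and differed by 0.002 ± 0.11 (SD, n = 4 pairs). MLXIP (MondoA) differed by 0.14 log2 in Hke3, where both pairs were above 0, and by -0.19 in HCT116, where both were below it. That interaction, 0.33 ± 0.10 log2, did not pass over all genes (limma, adjusted p = 0.108), and the second bright MLXIP probe set gave 0.03 ± 0.12 (adjusted p = 0.91). MLXIPL (ChREBP), best known from liver and fat, lay between 8.01 and 8.65 log2 and differed by -0.04 ± 0.20 (SD, n = 4 pairs). The signs of MLX and MLXIPL for the interaction turn with the scaling of the arrays.

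The colon cancer lines differed in 4 of the 9 genes, against 40.5% of all 13243 genes, so the share is near the background. ARRDC4 averaged 8.31 ± 0.38 log2 in Hke3 and 9.25 ± 1.04 in HCT116 (SD, n = 4), a difference of -0.95 ± 0.22 log2 (standard error; limma, adjusted p = 0.0112, lower in Hke3 in 4 of 4 pairs). That difference was -0.38 and -0.33 log2 between arrays without coculture and -1.47 and -1.61 between cocultured arrays. ARRDC1 averaged 8.83 ± 0.06 log2 in Hke3 and 8.52 ± 0.07 in HCT116 (SD, n = 4), a difference of 0.31 ± 0.06 (limma, adjusted p = 0.00363). ARRDC1 and MLXIPL were the 2 members whose arrays did not overlap between the lines, against 34.6% of all genes. Its dim second probe set pointed the other way (-0.21 ± 0.07, adjusted p = 0.0357 among single probe sets), and with the mean of both the difference was 0.05 and not called (adjusted p = 0.452).

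MLXIPL averaged 8.49 ± 0.12 log2 in Hke3 and 8.11 ± 0.10 in HCT116 (SD, n = 4), a difference of 0.38 ± 0.08 (limma, adjusted p = 0.00762, higher in Hke3 in 4 of 4 pairs). TXN was higher in Hke3 by 0.16 ± 0.06 log2 (limma, adjusted p = 0.0467), a call that was lost when 7 of the 8 arrays were left out in turn (adjusted p of 0.058 to 0.145) and held without HCT116 alone. It was also lost with no filter on dim genes (adjusted p = 0.078), over single probe sets (adjusted p = 0.058) and with the arrays blocked by coculture and vitamin D3 (adjusted p = 0.0518). Its second probe set gave 0.33 ± 0.08 (adjusted p = 0.0133 among single probe sets). TXNIP (-0.06 ± 0.08), MLX (0.06 ± 0.06), MLXIP (0.06 ± 0.08), ARRDC2 (0.09 ± 0.06) and ARRDC3 (-0.003 ± 0.19; 0.02 after median centring) were not called. Other probe sets of MLX (-0.31 ± 0.07, adjusted p = 0.00716) and MLXIP (0.34 ± 0.06, adjusted p = 0.00416) did pass, so the probe sets of these genes disagree on the lines. The ACTB 3' minus 5' difference also separated the lines, and its part in these small differences was not tested.

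Vitamin D3 moved none of the 9 genes past the threshold, nor any other gene (0.0% of 13243; limma), and 375 genes (2.83%) had an unadjusted p under 0.05. Apart from ARRDC3, the members' vitamin D3 differences lay between -0.04 and 0.06 log2, with standard errors of 0.06 to 0.22. These means add pairs in which CYP24A1 was higher with vitamin D3, those without coculture, to pairs in which it was lower, those in coculture, so differences that follow CYP24A1 cancel in them. For ARRDC4 the pairs without coculture gave 0.21 and 0.16 log2 and the cocultured pairs -0.29 and -0.14, for a mean of -0.02. In THP1, where each condition has 1 array and no test is possible, ARRDC4 was 10.26 log2 with vitamin D3 and 9.71 alone, a difference of 0.56. TXNIP was 12.90 log2 with vitamin D3 and 12.69 alone, and its other probe sets differed by 0.58 and 0.17 in the same direction. ARRDC3 was 7.84 log2 with vitamin D3 and 8.19 alone, a difference of -0.35. The remaining 6 members differed by -0.19 to 0.17 log2.

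Of the 9 genes, THP1 cells differed most from the colon cancer lines in TXNIP. In THP1 TXNIP averaged 12.80 ± 0.15 log2 (SD, n = 2) and in colon cancer cells without coculture 7.16 ± 0.13 (SD, n = 4), a difference of 5.64 ± 0.11 log2, or 49.7-fold (limma, adjusted p = 2.07e-06). The other TXNIP probe sets gave 7.39 ± 0.16 and 6.45 ± 0.10 log2, so the fold depends on the probe set. Both lay under the median of all values on every colon cancer array and passed the filter only through the THP1 arrays. Their differences are therefore no independent measure of its size. ARRDC4 was higher in THP1 by 1.81 ± 0.11 log2 (adjusted p = 7.48e-05), with 10.26 and 9.71 in THP1 against 7.90 to 8.43 without coculture. ARRDC1 was higher by 0.46 ± 0.07 (adjusted p = 0.00249) and MLX by 0.27 ± 0.09 (adjusted p = 0.0427). The MLX call was lost without each of the 4 colon cancer arrays (adjusted p of 0.0573 to 0.161) and without THP1 with vitamin D3 (0.16 log2, adjusted p = 0.171).

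Lower in THP1 were both glucose-sensing partners of MLX, together with thioredoxin and ARRDC3. MLXIPL differed by -0.85 ± 0.13 log2 (adjusted p = 0.00232) and MLXIP by -0.72 ± 0.08 (adjusted p = 0.000654). ARRDC3 differed by -0.69 ± 0.10 log2 (adjusted p = 0.00176) and TXN by -0.53 ± 0.07 (adjusted p = 0.00187). ARRDC2 did not pass (0.09 ± 0.07, adjusted p = 0.309). In all, 8 of the 9 genes passed, against 66.3% of the 13778 genes tested between THP1 and the colon cancer lines, with 4 higher (27.2% of all genes) and 4 lower (39.1%). The arrays did not overlap for the same 8 genes, against 70.0% of all genes, so neither count is far above the background.

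**Figure D4:**
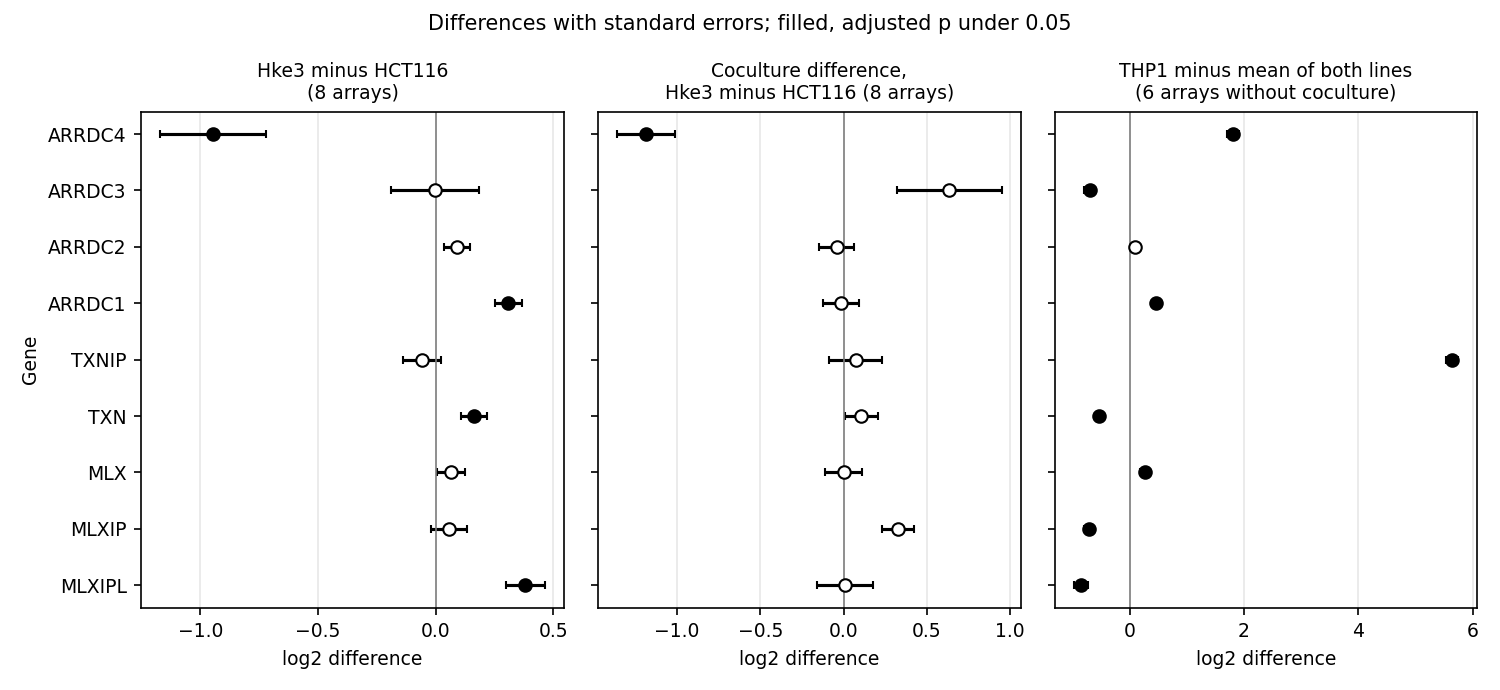
Differences of the 9 genes in log2 with standard errors: Hke3 minus HCT116 over 8 arrays, the coculture difference in Hke3 minus that in HCT116 over 8 arrays, and THP1 minus the mean of both colon cancer lines over the 6 arrays without coculture. Filled points have an adjusted p under 0.05, and each panel has its own scale. ARRDC4 is at -0.95, -1.19 and 1.81 in the panels from left to right, and TXNIP is at 5.64 in the right one.

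Other glucose-responsive targets of MondoA and ChREBP were then examined. Of 16 listed genes 13 were tested, and for coculture none passed, with a median difference of -0.02 log2, equal to that of all genes, -0.02. BHLHE40, a circadian repressor, had the largest coculture value, 0.68 ± 0.60 log2 (SD, n = 4 pairs), followed by KLF10, a growth-inhibiting factor, at 0.24 ± 0.29. KLF10 had the larger value in HCT116, with 0.03 log2 (Hke3) and 0.44 (HCT116), an interaction of -0.41 ± 0.14 that did not pass (adjusted p = 0.147). For the interaction with the line, BHLHE40 (0.93 ± 0.20, adjusted p = 0.0447) and SCD, a fatty acid desaturase (0.58 ± 0.11, adjusted p = 0.035), had the larger value in Hke3, against 1.87% of all genes in that direction. FASN, fatty acid synthase, was higher in Hke3 than in HCT116 by 1.08 ± 0.17 log2 (adjusted p = 0.00153), and ACLY, which makes cytosolic acetyl-CoA, was lower (-0.41 ± 0.07, adjusted p = 0.0032). In THP1, 6 of the 13 were lower (39.1% of all genes) and 2 higher (27.2% of all genes), among them ELOVL6, a fatty acid elongase (-4.70 ± 0.10, adjusted p = 2.51e-06), and PNPLA3, a lipase (2.34 ± 0.28, adjusted p = 0.000972).

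Some genes of glucose uptake and phosphorylation had the larger coculture value in Hke3, where ARRDC4 had the smaller. Of 17 listed genes 15 were tested, and 5 passed for the interaction with the larger value in Hke3, against 1.87% of all genes, and none with the larger value in HCT116, against 2.34%. The hexokinase HKDC1 ran the other way without passing, with coculture differences of -0.26 log2 (Hke3) and 1.13 (HCT116), an interaction of -1.38 ± 0.40 (adjusted p = 0.101). PFKFB4, which tunes glycolytic flux, had coculture differences of 1.63 log2 (Hke3) and -0.12 (HCT116), an interaction of 1.75 ± 0.16 (adjusted p = 0.00384). HK2, a hexokinase, had values of 1.10 (Hke3) and -0.06 (HCT116), an interaction of 1.16 ± 0.17 (adjusted p = 0.0145), and PDK1, which restrains pyruvate oxidation, had 1.37 (Hke3) and 0.32 (HCT116), an interaction of 1.05 ± 0.20 (adjusted p = 0.0357). The others were the hexokinase HK1 (0.63 ± 0.11, adjusted p = 0.0236) and the phosphofructokinase PFKP (0.49 ± 0.10, adjusted p = 0.0413), the last named after its value was seen. The list's median for the interaction was 0.41 log2, and that of all genes 0.02. For coculture itself 4 of the 15 passed upward, PDK1 and, named after their values were seen, the glucose transporter SLC2A1, the isomerase GPI and the phosphofructokinase PFKL, with a list median of 0.36 log2 and 3.76% of all genes in that direction.

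SLC2A1, the transporter that TXNIP and ARRDC4 act on, was lower in Hke3 than in HCT116 (-2.12 ± 0.16 log2, adjusted p = 6.14e-05). HKDC1 was higher in Hke3 by 2.37 ± 0.31 (adjusted p = 0.000695). In all 8 of the 15 genes were higher and 2 lower in Hke3, against 24.8% and 15.7% of all genes. In THP1, 10 of the 15 were lower than in the colon cancer lines, against 39.1% of all genes, led by the phosphofructokinase PFKM (-3.23 ± 0.17, adjusted p = 4.54e-05), and 2 were higher, against 27.2%, led by the transporter SLC2A6 (2.27 ± 0.26, adjusted p = 0.00081). SLC2A1, named here after its value was seen, was also lower in THP1 than in the mean of both lines (-1.69 ± 0.10 log2, limma, adjusted p = 6.53e-05). Since the lines differ by -2.12 log2 in this gene, that mean describes neither of them well. A link between TXNIP and SLC2A1 levels was not tested, and TXNIP did not differ between the lines (-0.06 ± 0.08 log2).

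The thioredoxin system moved little with coculture. Of 12 genes tested, RRM1, a subunit of ribonucleotide reductase, fell (-0.30 ± 0.09, SD, n = 4 pairs), as 4.05% of all genes did, and the largest rises, in SRXN1 (0.23 log2), which repairs peroxiredoxins, and TXNRD1 (0.22 log2), which reduces thioredoxin, did not pass. In THP1, 5 of the 12 were lower, including SRXN1 (-2.23 ± 0.13, adjusted p = 6.97e-05) and TXNRD1 (-1.39 ± 0.10, adjusted p = 0.000141), and 3 higher, including the repair enzyme MSRA (0.83 ± 0.08, adjusted p = 0.000493), shares near the 39.1% and 27.2% of all genes. Of the MYC and MAX network, some of whose repressors pair with MLX as well as with MAX, 2 of 9 genes rose with coculture, against 3.76% of all genes. They were the repressors MXD1 (0.68 ± 0.30, SD, n = 4 pairs) and MXI1 (0.58 ± 0.28, SD, n = 4 pairs), each higher in 4 of 4 pairs. MYCL had the larger coculture value in HCT116 (0.01 log2 against 0.71, a difference of -0.70 ± 0.09, adjusted p = 0.0123), as ARRDC4 did, and 2.34% of all genes passed in that direction.

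Of the NEDD4-family ligases that alpha-arrestins recruit, 8 were tested, and 1, ITCH, rose with coculture (0.32 ± 0.21, SD, n = 4 pairs), against 3.76% of all genes. ITCH was also lower in Hke3 than in HCT116 (-0.75 ± 0.08, adjusted p = 0.000289), while 5 others, among them WWP1 (0.49 ± 0.05, adjusted p = 0.000284), were higher there, against 24.8% of all genes. NEDD4 had the larger coculture value in HCT116 (-0.52 ± 0.11, adjusted p = 0.0423). In THP1, 5 of the 8 were lower and none higher, against 39.1% and 27.2% of all genes, led by SMURF2 (-3.93 ± 0.09, adjusted p = 3.32e-06) and NEDD4L (-2.14 ± 0.11, adjusted p = 5.02e-05). Of 7 arrestin-fold relatives none passed for coculture or for the interaction. ARRB1, a beta-arrestin, was higher in THP1 by 1.23 ± 0.07 log2 (adjusted p = 7.02e-05).

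The genes most like ARRDC4 over the 8 colon cancer arrays, among 919 tested genes that ranged over at least 1 log2, were PRPH (Pearson r = 0.97), an intermediate filament gene, IQCH (0.96), the histone gene H2BC5 (0.96), the noncoding EPB41L4A-AS1 (0.96) and ARG2 (0.95), the mitochondrial arginase. Each had the larger coculture difference in HCT116, from 0.17 log2 in Hke3 and 0.88 in HCT116 for PRPH to 0.45 and 0.62 for H2BC5. These genes were picked for their likeness to ARRDC4 on the same arrays, so that shared direction follows largely from the choice and is no separate result. For TXNIP the highest correlation was 0.46, with SMG1P5, followed by ANKRD20A5P (0.43), FARS2 (0.41), HSPH1 (0.40) and UNK (0.40). With 8 arrays in 4 pairs of conditions these values describe likeness. TXNIP itself ranged only from 6.999 to 7.33 log2 on these arrays and would not have met the 1 log2 range. Its lower correlations with strongly varying genes therefore cannot be set against those of ARRDC4.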

How the data were processed

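The 10 one-colour Affymetrix arrays hold 1 culture condition each. Per the submitters' processing notes, the deposited log2 intensities were made with RMA through the R package affy, without a stated version; whether all arrays were normalised together is not given in the sources used here. Deposited values ran from 2.98 to 15.2 log2. Of 54675 probe sets, 41097 have 1 gene symbol in the platform annotation, 1801 several and 11777 none, and only the first were used.

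Arrays were grouped by title. The label field naming the source of the Hke3 array with vitamin D3 calls it untreated, and the title was followed. Genes were tested where the highest value on the fitted arrays passed the median deposited value, 6.18 log2. An additive limma model (limma 3.58.1, R 4.3.3) of the 8 colon cancer arrays had terms for line, coculture and vitamin D3 (4 residual degrees of freedom), plus the product of line and coculture for the interaction (3). THP1 was compared with the mean of both lines over the 6 arrays without coculture (2). P-values are two-sided and adjusted by Benjamini-Hochberg over all genes tested, with a threshold of 0.05. They measure only the spread between these single arrays, whose number limits the precision. Values after ± are standard errors unless called SD.

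The genes and gene lists were chosen with earlier results of these data known. List genes were named by size, up to 4 past the threshold per tested comparison and the 2 largest rises and falls for coculture. The fits were tested on simulated data in which 200 genes were changed by a fixed amount. They recovered 96.0% of these for coculture, 96.5% for the cell line and 98.5% for vitamin D3. Recovery was 77.5% for the interaction and 62.0% for THP1, so genes that did not pass there may still differ. Alternatives were other filters, probe set choices, normalisations and models, and leaving out each array. Plots used matplotlib 3.10.9 (Python 3.11.15).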

Additional observations from a re-analysis of the deposited data

Results flagged for a closer look

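The coculture effect on ARRDC4 differed between the colon cancer lines: 0.61 log2 in Hke3 and 1.80 in HCT116, an interaction of -1.19 ± 0.17 log2 (limma, adjusted p = 0.0152 over 13243 genes). It stands out because the same contrast gave values of different size in the lines by a test of the difference itself. The gene was chosen for its coculture rise, so this p-value may not be independent of that choice. Both Hke3 pairs, 0.36 and 0.85 log2, lay below both HCT116 pairs, 1.65 and 1.95. Over the alternatives other than leaving out arrays, the adjusted p ran from 0.00126 to 0.0251, and when 1 array was left out it ran from 0.0144 to 0.0753.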

How the results depend on the processing

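No paired analysis by replicate number was possible because each condition has 1 array; arrays alike in the remaining factors could be paired, as a block. The coculture difference of ARRDC4 was 1.01 to 1.42 log2 when 1 array was left out. Leaving out 1 array gave 3 to 4 members called for the cell line, 0 to 1 for the interaction, 7 to 8 for THP1 and 0 for vitamin D3; over all genes it gave 39 to 459 called for coculture, 4140 to 4668 for the cell line, 101 to 282 for the interaction, 7907 to 9403 for THP1 and 0 for vitamin D3. The coculture count of 1035 was 656 without a filter, 259 when the remaining factors formed a block, and 2947 with all two-way interactions together, which leaves 1 residual degree of freedom and called 2 members for the interaction. The interaction count of 557 was 277 without a filter, 973 when the filter was raised to the 75th percentile, 865 over single probe sets, and 1169 after a robust fit with a trend; over single probe sets, where more features were tested, the cell line count of 5364 became 10283 and the THP1 count of 9136 became 17041. TXNIP drops out at the 75th percentile and with the mean of its probe sets. Signs that turned belong to members that were not called in the comparison concerned. With median centring these were ARRDC3 between the lines (0.0185), ARRDC4 (0.0067) and MLXIPL (0.0225) for vitamin D3, and MLX (-0.0169) and MLXIPL (-0.0093) for the interaction. With cyclic loess they were MLXIPL for vitamin D3 (0.0105) and MLX for the interaction (-0.0087). With the mean of the probe sets they were MLX between the lines (-0.0924), ARRDC1 (-0.0397), TXN (-0.0154) and MLX (-0.0809) for vitamin D3, and TXN for the interaction (-0.0289). With 1 array left out, ranges that cross 0 were, between the lines, -0.22 to 0.18 for ARRDC3 and -0.12 to 0.024 for TXNIP; for the interaction, -0.0831 to 0.0531 for ARRDC1, -0.12 to 0.0422 for ARRDC2, -0.0939 to 0.0949 for MLX, -0.18 to 0.20 for MLXIPL and -0.12 to 0.27 for TXNIP; and for vitamin D3, -0.0574 to 0.0025 for ARRDC2, -0.22 to 0.20 for ARRDC4, -0.022 to 0.0462 for MLX, -0.10 to 0.0214 for MLXIP, -0.0615 to 0.0714 for MLXIPL, -0.0284 to 0.0338 for TXN and -0.12 to 0.0184 for TXNIP. The cause was not tested.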
